A study of Mus musculus with 24 samples.

Results

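RNA levels of the platelet-derived growth factor (PDGF) family, namely the ligand genes Pdgfa, Pdgfb, Pdgfc and Pdgfd and the receptor genes Pdgfra and Pdgfrb, were followed through freshly sorted mouse liver cells and through transwell cultures of ductal and mesenchymal cells. The 6 members were taken by symbol from 2 tables, 1 for each experiment, and each table holds 1 row for every member among 49568 genes. All 6 passed the filter on low values in both experiments (at least 1 unit in 3 or more of the homeostasis samples, or in 2 or more of the transwell samples), and they were followed over 24 samples.

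The homeostasis experiment sampled 3 littermates of 12 weeks (mice A and E male, mouse F female), each of which gave 4 liver fractions (n = 3 mice per fraction). These were EpCAM+ ductal cells (DCs), a PDGFRα+SCA1+ and a PDGFRα+SCA1- mesenchymal fraction, and a PDGFRα-SCA1+ stromal fraction. The mice were of C57BL/6 background and all were heterozygous for B6.129S4-Pdgfratm11(EGFP)Sor/J, a reporter that puts H2B-GFP into the Pdgfra locus, and every fraction was gated negative for CD11b, CD45 and CD31. PDGFRα+ here means positive for that nuclear GFP, so the difference in Pdgfra between GFP+ fractions and the others is what the cells were sorted on and is given without being counted. In the transwell experiment, cells came from wild type C57BL/6 adults of 8 to 12 weeks, with 2 replicates for each of 6 groups. DCs were sequenced when freshly sorted (day 0), as organoids at day 15 in expansion medium (EM), which supplies growth factors, and as organoids at day 15 on an insert above mesenchymal cells in mesenchymal medium (MM). SCA1+ mesenchymal cells (SCA1+Msc) were sorted on SCA1 with no gate on PDGFRα. They were sequenced when freshly sorted (day 0) and at day 15, either without DCs (alone) or below them (co-cultured). For co-culture, the study's methods expand these cells in MM before DCs are added, a step that day 0 cells had not been through. EM organoids and co-cultured organoids therefore differ in medium as well as in the presence of mesenchyme, and these cannot be told apart. The study's methods draw each cell type from 2 littermates, but the labels do not tie a replicate to an animal or a culture, so p-values there measure the spread between these samples, which may be technical.

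PDGFs are secreted as dimers and bind receptor tyrosine kinases on neighbouring cells. PDGF-A and PDGF-C act mainly through PDGFRα, PDGF-B binds both receptors, and PDGF-D acts mainly through PDGFRβ. PDGF-C and PDGF-D are released with a CUB domain that proteases must remove before they can bind. In the liver the receptors are known from stellate cells, portal fibroblasts and other mesenchyme, and PDGF-B from endothelium and platelets is a well-known mitogen of activated stellate cells.

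Between 19.3 M and 28.0 M reads on genes were recovered per sample (19.6 M to 25.7 M in the homeostasis experiment), so that 3 reads, the floor below which a value was not told apart from absence, were worth 0.0335 to 0.187 units on a member. A unit is TPM, a share of transcripts corrected for their length, in the transwell experiment and the deposited value in the homeostasis experiment. The deposited value is named TPM, but its totals differ between samples and its divisor changes from gene to gene within a sample. Genes of the same homeostasis sample are therefore not on the same scale, and some shares and ratios are also given with totals restored. The ductal, endothelial and mesenchymal lists followed the gates except in the PDGFRα-SCA1+ fraction. The 8 endothelial genes, Pecam1 (CD31), Cdh5 and Kdr among them, summed to 3334 to 3494 in the PDGFRα-SCA1+ fraction against at most 69.8 in any other homeostasis sample, although this fraction was sorted as CD31-, and it is called by its gate below. The 6 ductal genes summed to 56244 to 75892 in DCs, and the 5 mesenchymal genes to 29973 to 53071 in the PDGFRα+ fractions. The PDGFRα-SCA1+ library of mouse E held a ductal sum of 3784, against 79.3 and 327 in mice A and F. Freshly sorted SCA1+Msc libraries also held hepatocyte genes (sums of 15779 to 20391), ductal genes (1192 and 2539) and endothelial genes (272 and 306), of which the hepatocyte sum was at most 368 and the endothelial sum 147 to 267 in cultured SCA1+Msc.

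Fresh DCs carried PDGF ligand transcripts and almost no receptor, and the PDGFRα+ stroma carried both receptors with little or no Pdgfb and Pdgfc. Against DCs, 4 of the 5 members counted differed in PDGFRα+SCA1+ cells (limma, adjusted p under 0.05; 23.8% of all genes tested), 1 higher and 3 lower, and 4 of 5 differed in PDGFRα+SCA1- cells (28.8% of all genes), again 1 higher and 3 lower. Between the 2 PDGFRα+ fractions, 0 of 6 members differed in the same fit (0.587% of all genes), and 1 of the 6 had an unadjusted p under 0.05. In bulk samples such as these, fewer cells of a type and less RNA per cell cannot be told apart. The median gene itself lay at -0.28 and -0.47 on the log2 scale in these 2 comparisons with DCs, at 0.15 between the PDGFRα+ fractions, and at 0.25 and 0.41 in the PDGFRα-SCA1+ fraction against them. In the transwell comparisons it lay between -0.13 (co-cultured against EM organoids) and 0.19 (SCA1+Msc alone against day 0). Differences below are to be read against those shifts.

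**Figure D1:**
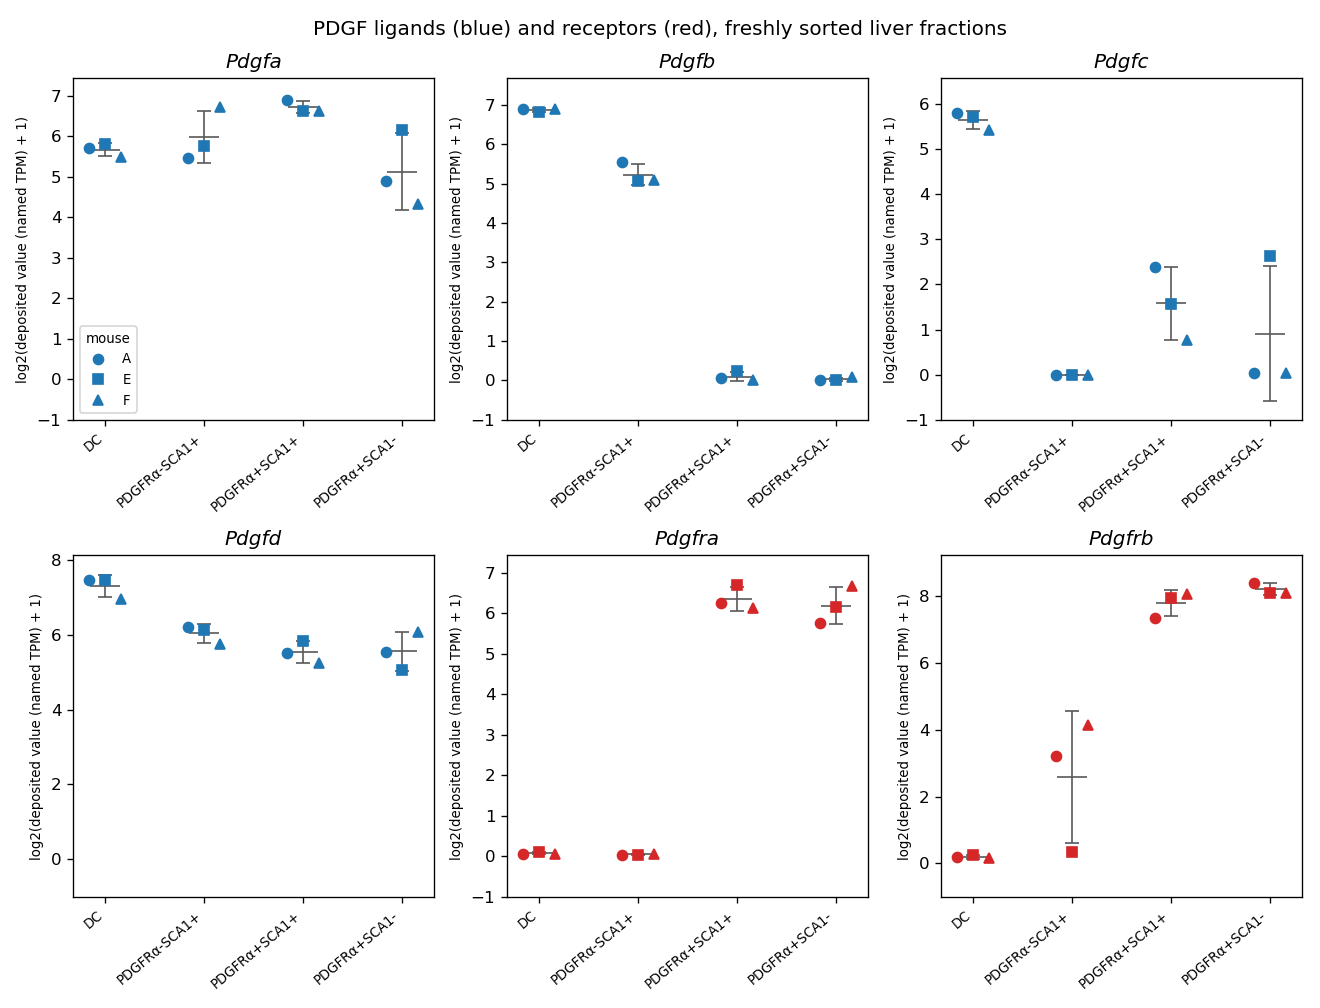
Each panel plots 1 gene on the log2(deposited value + 1) scale in the 4 fractions (n = 3 mice, symbols), with the mean and SD of the log2 values as a line and bars. Pdgfb is at 0 to 3 reads in all 6 PDGFRα+ samples, both receptors are near 0 in DCs, and Pdgfrb is spread over mice in the PDGFRα-SCA1+ fraction.

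Pdgfrb, which encodes the receptor for PDGF-B and PDGF-D (chromosome 18), was at 163, 246 and 268 in the PDGFRα+SCA1+ fraction (mice A, E and F in this order, here and below). It was at 338, 274 and 272 in PDGFRα+SCA1- cells, and at 0.136, 0.187 and 0.110 in DCs, which is 4 to 6 reads per library. No value of the PDGFRα+ fractions came near a ductal one. Against the 14 reads of the 3 DC libraries the level was 1575 times as high in PDGFRα+SCA1+ cells (95% counting interval 939 to 2882) and 2056 times as high in PDGFRα+SCA1- cells (1225 to 3760), with fitted differences of 7.60 ± 0.73 (SE) and 8.01 ± 0.73 on the log2(value + 1) scale (adjusted p = 1.0e-05 and 6.8e-06, limma). Between the 2 PDGFRα+ fractions the difference was -0.41 ± 0.73 (95% interval -1.99 to 1.18, limma adjusted p = 0.894), although the 3 PDGFRα+SCA1- values all lay above the 3 PDGFRα+SCA1+ values. Smooth muscle and pericyte markers summed to 1693 to 2972 in PDGFRα+SCA1- cells and to 220 to 262 in PDGFRα+SCA1+ cells. Their part in the Pdgfrb levels was not tested.

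Pdgfra (chr5:75152292-75198215, plus strand), the receptor for PDGF-A and PDGF-C and the gene behind the gate, was at 75.0, 103 and 69.1 in PDGFRα+SCA1+ cells and at 52.9, 70.2 and 101 in PDGFRα+SCA1- cells. The 2 groups overlapped, and their difference of 0.17 ± 0.43 had a 95% interval of -0.78 to 1.11 (limma adjusted p = 0.942). DCs held 3, 6 and 3 reads and PDGFRα-SCA1+ cells 2, 2 and 3 reads.

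Per exonic base, Pdgfrb was the more abundant receptor in every PDGFRα+ sample. The exon lengths are 10024 bases for Pdgfra and 5478 for Pdgfrb, and the ratios depend on them. In reads, PDGFRα+SCA1+ cells held 5892 of Pdgfrb against 5590 of Pdgfra in mouse A and 7223 against 6733 in mouse E. The ratio of Pdgfrb to Pdgfra was 2.81 ± 0.93 (SD, n = 3) in PDGFRα+SCA1+ cells and 4.33 ± 1.88 in PDGFRα+SCA1- cells, where the mice ranged from 2.69 to 6.38. With each sample's own total restored (see the processing), the ratios were 2.35 ± 0.70 and 3.62 ± 1.49. One Pdgfra allele of these mice carries the reporter, and its part in this ratio was not tested.

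The PDGFRα-SCA1+ fraction, in which endothelial markers were high, showed Pdgfrb without Pdgfra. Pdgfrb stood at 8.33 (245 reads) in mouse A, 0.280 (9 reads) in mouse E and 16.8 (607 reads) in mouse F. All 3 values lay above the DC range, and mice A and F set the mean. The mean was 59.1 times that of DCs over their 14 reads (counting interval 35.2 to 108). That interval covers counting error in the DC reads only and leaves out the spread between the 3 mice. The fitted difference was 2.38 ± 0.73 (adjusted p = 0.0327, limma). This call was lost when any 1 DC library or the PDGFRα-SCA1+ library of mouse A or F was left out (adjusted p = 0.075 to 0.116) and without the filter on low values (0.0675). Against PDGFRα+SCA1+ and PDGFRα+SCA1- cells Pdgfrb was lower by far, at -5.22 ± 0.73 and -5.62 ± 0.73 (adjusted p = 2.98e-04 and 1.62e-04, limma). The 7 smooth muscle and pericyte markers summed to 134, 133 and 96.5 in mice A, E and F of this fraction and the 5 mesenchymal markers to 470, 289 and 464, and their part in the Pdgfrb level was not tested.

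**Figure D2:**
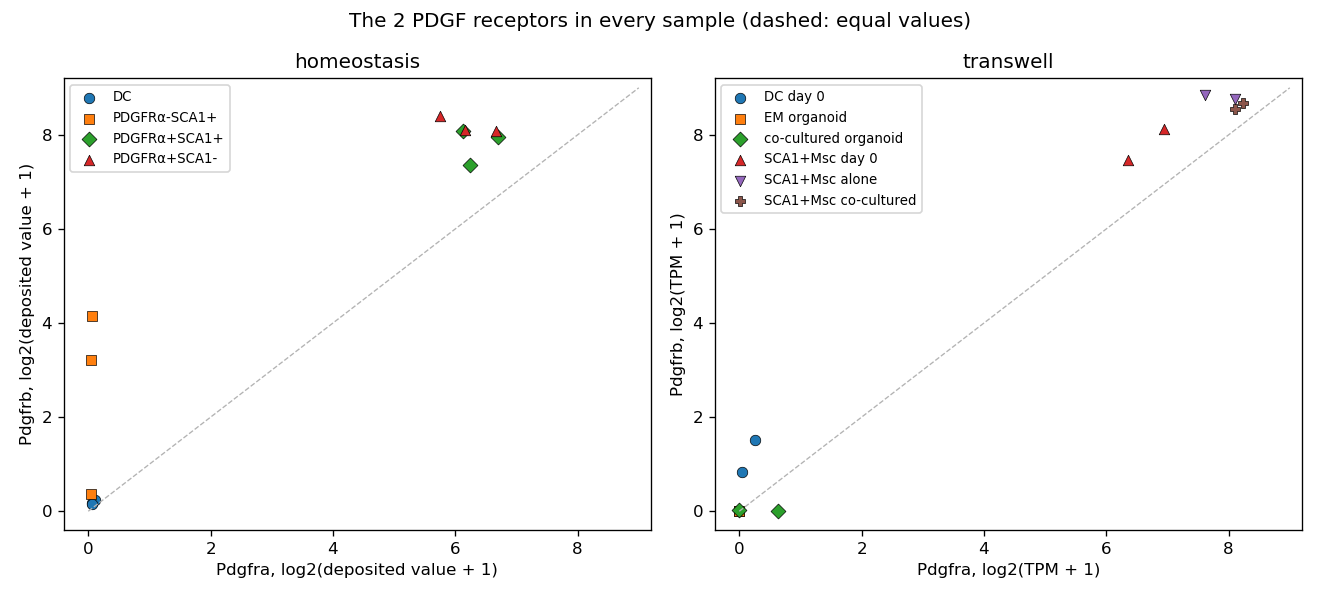
Each point is 1 sample, with Pdgfra on the x axis and Pdgfrb on the y axis, both as log2(value + 1), for the 12 homeostasis samples (left) and the 12 transwell samples (right). All PDGFRα+ and all SCA1+Msc samples lie above the dashed line of equal values, and the PDGFRα-SCA1+ samples of mice A (8.33) and F (16.8) have Pdgfrb with Pdgfra near 0.

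Pdgfb (chr15:79995874-80014977, minus strand), which binds both receptors, was the ligand that separated the fractions most sharply. DCs held 119, 112 and 119 units, PDGFRα-SCA1+ cells 45.6, 32.3 and 33.4, PDGFRα+SCA1+ cells 1, 3 and 0 reads and PDGFRα+SCA1- cells 0, 0 and 1 read. The DC mean of 117 ± 4.17 (SD, n = 3) was 1563 times the level of the 4 reads in PDGFRα+SCA1+ cells (95% counting interval 610.5 to 5737) and 6253 times that of the single read in PDGFRα+SCA1- cells (1122 to 246977). These levels were not told apart from absence, so only the lower ends of the intervals are to be read. The fitted differences were -6.78 ± 0.41 and -6.85 ± 0.41 (adjusted p = 2.9e-07 for both, limma). Where the receptors stood at their highest, this ligand was therefore at or under the floor in all 6 libraries.

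In the PDGFRα-SCA1+ fraction 4 of 6 members differed from DCs (22.8% of all genes), 1 higher and 3 lower. Pdgfb was 3.15-fold lower than in DCs, a difference of -1.64 ± 0.41 (adjusted p = 0.0120, limma). The 3 values lay below all 3 DC values. The call was lost when any 1 DC library was left out (adjusted p = 0.0668 to 0.0746, limma) or with a pseudocount of 0.1 (0.133). The count of members was 1, 1 and 2 without the DC library of mouse A, E and F. It ran from 1 to 4 when each of the 6 libraries of the pair was left out in turn. Against each PDGFRα+ fraction 2 of the 5 members counted differed, 1 higher and 1 lower (18.8% of all genes against PDGFRα+SCA1+ cells and 21.5% against PDGFRα+SCA1- cells). The higher one was Pdgfb, at 5.13 ± 0.41 and 5.21 ± 0.41 (adjusted p = 4.8e-06 and 4.2e-06, limma), and the lower one was Pdgfrb.

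Pdgfc (chr3:81036416-81214040, plus strand), a ligand of PDGFRα that needs proteolysis, was a ductal transcript. It stood at 55.0, 51.1 and 41.7 in DCs and at 4.23, 1.98 and 0.707 in PDGFRα+SCA1+ cells. In PDGFRα+SCA1- cells mouse E held 198 reads (5.23 units) and mice A and F 1 read each. PDGFRα-SCA1+ cells held 0 reads in all 3 libraries, so DCs were at least 546-fold higher, taken against 3 reads per library. The fall from DCs passed the test in all 3 stromal fractions, with differences of -4.06 ± 0.72, -4.73 ± 0.72 and -5.64 ± 0.72 for PDGFRα+SCA1+ cells, PDGFRα+SCA1- cells and the PDGFRα-SCA1+ fraction (adjusted p = 0.00127, 3.85e-04 and 1.10e-04, limma), the last of which depends on the pseudocount because the group is at 0.

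Pdgfd (chr9:6168584-6378850, plus strand), the PDGFRβ ligand that is also activated by proteolysis, was present in every fraction. DCs held 176, 175 and 124 units, PDGFRα-SCA1+ cells 73.3, 68.8 and 52.9, PDGFRα+SCA1+ cells 44.2, 56.0 and 36.9 and PDGFRα+SCA1- cells 45.3, 32.1 and 66.2. DCs lay above all stromal samples. The 3 stromal fractions overlapped with each other. In the values as deposited, PDGFRα-SCA1+ cells held more Pdgfd than PDGFRα+SCA1+ cells in 3 of 3 mice (0.51 ± 0.31, adjusted p = 0.310, and 0.353 with the mouse as a block, limma). With each sample's own total restored, mouse E went the other way, at 58.3 in PDGFRα-SCA1+ cells against 63.0 in PDGFRα+SCA1+ cells. DCs were 3.46-fold higher than PDGFRα+SCA1+ cells (-1.77 ± 0.31, adjusted p = 0.00120, limma), 3.31-fold higher than PDGFRα+SCA1- cells (-1.75 ± 0.31, adjusted p = 0.00122) and 2.44-fold higher than PDGFRα-SCA1+ cells (-1.27 ± 0.31, adjusted p = 0.0106). The last call was lost without the DC library of mouse A or E (adjusted p = 0.0507 and 0.0521).

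Pdgfa (chr5:138976014-138997370, minus strand), the classical PDGFRα ligand, was the only ligand whose mean was highest in stroma. PDGFRα+SCA1+ cells held 118, 98.6 and 98.6 units, PDGFRα-SCA1+ cells 43.4, 53.4 and 104, DCs 51.5, 55.0 and 44.3 and PDGFRα+SCA1- cells 29.0, 70.9 and 19.0. PDGFRα+SCA1+ samples lay above all DC and all PDGFRα+SCA1- samples, in 3 of 3 mice each. The differences of 1.05 ± 0.44 from DCs and 1.59 ± 0.44 from PDGFRα+SCA1- cells did not pass the test over all genes (adjusted p = 0.113 and 0.172, limma). The former passed with each sample's own total restored (adjusted p = 0.0198), with quantile normalization (0.0255) and in a fit of only these 2 fractions (0.00296), and the latter without the PDGFRα+SCA1- library of mouse E (0.0201). Without that library the PDGFRα-SCA1+ fraction was also higher in Pdgfa than PDGFRα+SCA1- cells (1.37, adjusted p = 0.0221, against 0.85 ± 0.44 and 0.200 with all 3, limma). Exons of the antisense gene 6330403L08Rik cover 26.1% of the exonic bases of Pdgfa, and the counting is not stated to use strand, so reads of this pair cannot be told apart there.

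The make-up of the ligand transcripts, taken per length and per sample, varied between fractions, with overlap between the PDGFRα+ fractions. In DCs Pdgfd made up 42.0% ± 3.80 (SD, n = 3) of the 4 ligands and Pdgfb 31.4% ± 4.15, with 13.4% ± 0.58 Pdgfa and 13.1% ± 0.52 Pdgfc. In PDGFRα+SCA1+ cells Pdgfa made up 68.7% ± 5.11 and Pdgfd 29.8% ± 5.17. PDGFRα+SCA1- cells varied most, with Pdgfd at 61.0%, 29.7% and 77.6% in mice A, E and F. Pdgfa was there at 39.0%, 65.5% and 22.3%, and mouse E lay within the range of PDGFRα+SCA1+ cells (62.9% to 72.4%). PDGFRα-SCA1+ cells shared Pdgfa (38.7% ± 14.5), Pdgfd (39.2% ± 9.88) and Pdgfb (22.2% ± 5.40) with no Pdgfc read. The summed ligand level was 375 ± 40.1 in DCs. It was 169 ± 19.0 in the PDGFRα-SCA1+ fraction, 153 ± 15.6 in PDGFRα+SCA1+ cells and 89.3 ± 17.4 in PDGFRα+SCA1- cells, and with totals restored the shares of Pdgfb and Pdgfd in DCs were 31.3% ± 6.97 and 40.4% ± 5.45.

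**Figure D3:**
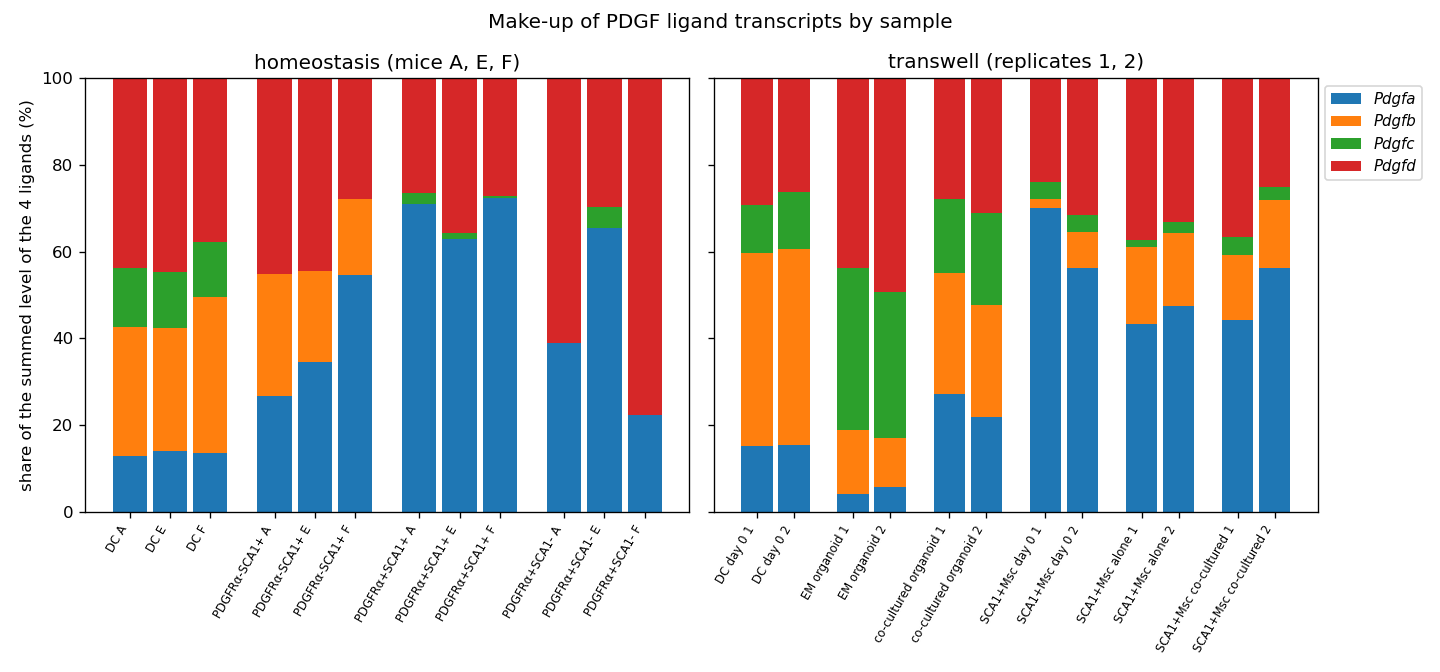
Each bar is 1 sample and shows the share (%) of Pdgfa, Pdgfb, Pdgfc and Pdgfd in their summed level, for the homeostasis (left) and transwell samples (right). Pdgfa takes 62.9% to 72.4% in PDGFRα+SCA1+ cells, and in DC cultures the Pdgfb share goes from 44.6% and 45.3% at day 0 to 14.8% and 11.3% in EM organoids.

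In the transwell experiment at day 0, both receptors and Pdgfa were higher in SCA1+Msc and the other 3 ligands were higher in DCs. All 6 members differed between SCA1+Msc and DCs at day 0 (46.1% of all genes), 3 higher and 3 lower in SCA1+Msc. Pdgfra was at 123 and 81.2 TPM (replicates 1 and 2) against 17 and 2 reads in DCs (6.50 ± 0.29, adjusted p = 2.9e-07, limma). Pdgfrb was at 278 and 175 against 1.87 and 0.788 (88 and 27 reads; 6.61 ± 0.27, adjusted p = 1.6e-07). Pdgfa was 1.69-fold higher in SCA1+Msc (75.5 and 74.6 against 44.7 and 44.1; 0.74 ± 0.19, adjusted p = 0.00890). Pdgfb, Pdgfc and Pdgfd were lower by -4.45 ± 0.49, -2.65 ± 0.26 and -1.27 ± 0.25 (adjusted p = 6.4e-05, 2.8e-05 and 0.00213, limma). The groups did not overlap for any of the 6. The ductal and endothelial sums given above are those of these same SCA1+Msc libraries, and their part in the Pdgfb level of 2.06 and 10.98 TPM was not tested.

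EM organoids carried another mix of ligand transcripts than DCs at day 0. Between EM organoids and DCs at day 0, 4 of 6 members differed (44.4% of all genes), 1 higher and 3 lower. Pdgfb fell 4.08-fold, from 132 and 130 TPM to 37.3 and 27.0 (-2.01 ± 0.49, adjusted p = 0.00790, limma), and Pdgfa fell 3.72-fold, from 44.7 and 44.1 to 10.02 and 13.8 (-1.83 ± 0.19, adjusted p = 4.8e-05). Pdgfc rose 2.47-fold, from 32.6 and 37.9 to 93.8 and 80.3 (1.28 ± 0.26, adjusted p = 0.00281). Pdgfd, at 86.7 and 74.9 against 110 and 118, did not pass (0.49 ± 0.25, limma adjusted p = 0.138), although it did in a fit of only these 2 groups (0.0162). The Pdgfb call was lost without EM organoid replicate 2 (adjusted p = 0.0561). EM organoids thus had Pdgfd and Pdgfc as 46.5% ± 3.85 and 35.5% ± 2.63 (SD, n = 2) of their ligand transcripts, against 27.7% ± 2.24 and 12.1% ± 1.56 at day 0. The hepatocyte sum was 4134 and 5225 in DCs at day 0 and 1339 and 1404 in EM organoids. The erythroid sum was 3890 and 3961 against 1.37 or less, and the leukocyte and macrophage sum 121 and 156 against 19.6 and 21.3. The part of these shifts in the ligand differences was not tested.

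Both receptors were at 0 reads in both EM organoid libraries, and Pdgfrb in DCs at day 0 was at least 15.5-fold higher, taken against 3 reads per library. The difference in Pdgfrb, -1.18 ± 0.27 (adjusted p = 0.00578, limma), depends on the pseudocount and was not called on RPKM as deposited (0.0696). The mesenchymal marker sum was 73.9 and 97.4 in DCs at day 0 and 7.78 and 2.02 in EM organoids, and the smooth muscle and pericyte sum 277 and 269 against 11.7 and 9.71. The part of these markers in the Pdgfrb difference was not tested.

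**Figure D4:**
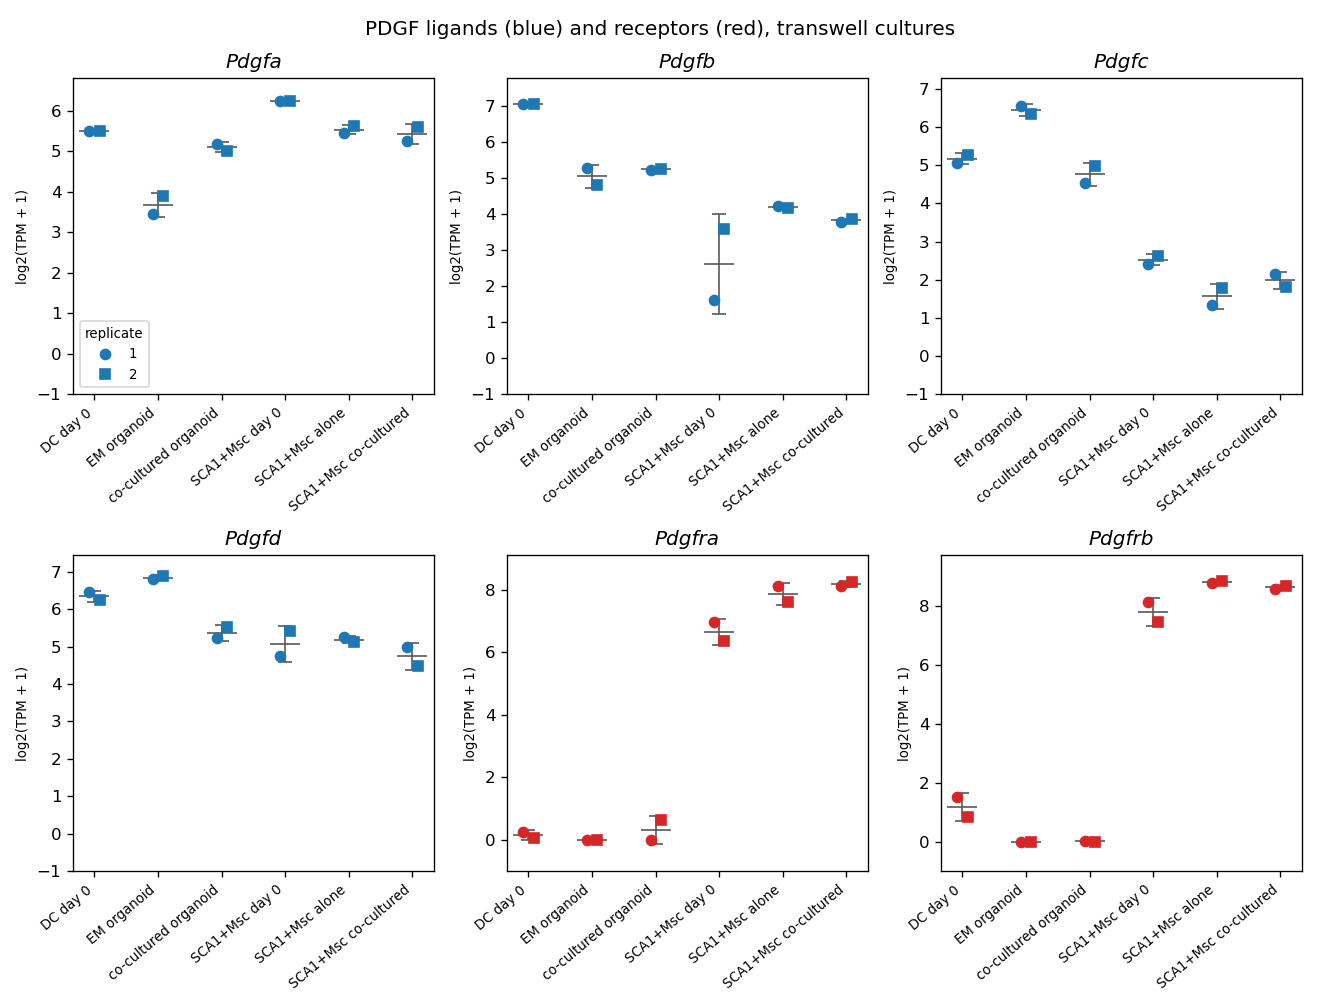
Each panel plots 1 gene as log2(TPM + 1) in the 6 transwell groups (n = 2 replicates, symbols), with the mean and SD of the log2 values as a line and bars. Pdgfc and Pdgfd are highest in EM organoids, and both receptors are high in the SCA1+Msc groups and at 88 reads or fewer in every ductal library.

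Organoids grown with mesenchyme had another ligand profile. Between co-cultured and EM organoids 3 of 6 members differed (12.9% of all genes), 1 higher and 2 lower. Pdgfa was 2.81-fold higher in co-culture, at 35.5 and 31.3 TPM against 10.02 and 13.8 (1.43 ± 0.19, adjusted p = 0.00113, limma). Pdgfc was 3.29-fold lower, at 22.4 and 30.6 against 93.8 and 80.3 (-1.69 ± 0.26, adjusted p = 0.00252). Pdgfd was 2.82-fold lower, at 36.2 and 44.7 against 110 and 118 (-1.48 ± 0.25, adjusted p = 0.00413). The groups did not overlap for any of these 3, and the calls held without any single library of the pair. Pdgfb, at 36.2 and 37.1 against 37.3 and 27.0, gave 0.20 ± 0.49 (95% interval -0.90 to 1.30, limma adjusted p = 0.920). The summed ligand level was 137 ± 9.43 TPM (SD, n = 2) in co-cultured and 245 ± 8.74 in EM organoids.

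Because Pdgfc and Pdgfd were the ligands that were lower together in co-culture, the 250 bases before their RefSeq transcription starts (GRCm38.p6, plus strand) are shown, with matches to any of 5 motifs in capitals. The Pdgfc window is chr3:81036166-81036415 and the Pdgfd window chr9:6168236-6168485.
Pdgfc: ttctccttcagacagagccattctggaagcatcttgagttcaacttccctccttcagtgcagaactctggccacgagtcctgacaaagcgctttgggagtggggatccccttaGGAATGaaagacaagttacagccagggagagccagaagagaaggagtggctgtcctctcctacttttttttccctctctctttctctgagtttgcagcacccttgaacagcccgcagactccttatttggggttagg
Pdgfd: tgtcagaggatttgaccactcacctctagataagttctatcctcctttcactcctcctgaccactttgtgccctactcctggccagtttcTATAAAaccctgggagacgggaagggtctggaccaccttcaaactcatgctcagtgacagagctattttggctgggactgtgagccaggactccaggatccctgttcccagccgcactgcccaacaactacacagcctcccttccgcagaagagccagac
The 5 motifs were searched on both strands, and 2 of them occur here, without overlap. Pdgfc held 1 match to GGAATG, a motif of TEAD factors, from 137 to 132 bases before the start, and 12.6% of 32851 promoter windows of this length hold that motif. Pdgfd held 1 match to the string TATAAA, from 160 to 155 bases before the start, and 12.4% of windows hold it. Whether this match acts as a TATA box of this start was not tested. Neither window held the GC box GGGCGG, which 32.7% of windows hold, nor the CCAAT box, which 33.8% hold. The AP-1 motif TGANTCA, held by 6.75% of windows, was in neither. The windows thus shared none of the 5 motifs.

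Against DCs at day 0, 3 of 6 members differed in co-cultured organoids (42.3% of all genes), all 3 lower. Pdgfb fell 3.58-fold (-1.81 ± 0.49, adjusted p = 0.0140, limma) and Pdgfd fell 1.997-fold (-0.98 ± 0.25, adjusted p = 0.00981), whereas Pdgfa and Pdgfc gave -0.40 ± 0.19 and -0.41 ± 0.26 (adjusted p = 0.118 and 0.239, limma), and Pdgfa passed with quantile normalization alone (0.0325). Pdgfb was not called when any 1 of the 4 libraries was left out (adjusted p = 0.0582 to 0.0631), nor was Pdgfd without DC day 0 replicate 1 (0.0645) or co-cultured organoid replicate 1 (0.0709), and the count of members then ran from 0 to 2. Pdgfrb was at 1 and 0 reads in co-cultured organoids (-1.16 ± 0.27, adjusted p = 0.00656), a call lost without DC day 0 replicate 1 (0.05004) and on RPKM as deposited (0.0752). Pdgfra was at 0 reads in co-cultured organoid replicate 1 and at 42 reads (0.556 TPM) in replicate 2, whose mesenchymal sum was 17.1 against 2.87 in replicate 1.

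In mesenchymal cells both receptors were higher after culture than at day 0, with calls that did not hold under every alternative. Against day 0, 5 of 6 members differed in SCA1+Msc grown alone (44.8% of all genes), 3 higher and 2 lower, and 3 of 6 in co-cultured SCA1+Msc (43.3%), 2 higher and 1 lower. Pdgfra rose from 123 and 81.2 TPM to 274 and 194 alone (1.20 ± 0.29, adjusted p = 0.00844, limma) and to 274 and 302 in co-culture (1.52 ± 0.29, adjusted p = 0.00249). Pdgfrb rose from 278 and 175 to 435 and 459 alone (1.02 ± 0.27, adjusted p = 0.0124) and to 375 and 410 in co-culture (0.83 ± 0.27, adjusted p = 0.0320). All cultured values lay above both day 0 values for both receptors. The 5 mesenchymal markers went from 24239 and 25569 at day 0 to 38527 to 43999 in culture, beside a Pdgfrb mean that was 1.98-fold higher alone and 1.73-fold higher in co-culture. The 6 portal fibroblast markers went from 2975 and 3167 down to 566 to 871. The summed smooth muscle and pericyte markers went from 733 and 902 at day 0 to 3165 to 3922 in culture, and the hepatocyte sum from 15779 to 20391 down to 0.400 to 368. The part of these shifts in the receptor levels was not tested.

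The mesenchymal ligands moved in different directions. Pdgfa fell 1.64-fold alone (75.5 and 74.6 to 43.0 and 48.2 TPM; -0.71 ± 0.19, adjusted p = 0.0123, limma) and 1.77-fold in co-culture (to 37.2 and 47.8; -0.82 ± 0.19, adjusted p = 0.00613). Pdgfb was at 2.06 and 10.98 at day 0, at 17.6 and 17.0 alone (1.599 ± 0.488, adjusted p = 0.0238) and at 12.8 and 13.4 in co-culture (1.22 ± 0.49, adjusted p = 0.0712). The endothelial gene Pecam1 was at 45.8 to 96.1 TPM and Cdh5 at 31.4 to 58.2 in these cultured libraries, and their part in the Pdgfb level was not tested. Pdgfc fell alone from 4.34 and 5.18 to 1.51 and 2.45 (-0.96 ± 0.26, adjusted p = 0.0128) and was at 3.41 and 2.53 in co-culture (-0.54 ± 0.26, adjusted p = 0.121). Pdgfd was at 25.7 and 41.8 at day 0, 37.2 and 33.7 alone and 30.8 and 21.3 in co-culture, so that both cultured groups overlapped with day 0 (0.11 ± 0.25 and -0.34 ± 0.25, adjusted p = 0.780 and 0.296).

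Several of these calls were lost when a library was left out. Without SCA1+Msc alone replicate 1, 0 of the 6 members differed between alone and day 0 (limma), with adjusted p between 0.0511 and 0.0893 for the 5. The differences kept their direction, at 1.06 for Pdgfrb, 1.57 for Pdgfb, -0.63 for Pdgfa, 0.95 for Pdgfra and -0.73 for Pdgfc, and their SEs were larger. Without SCA1+Msc alone replicate 2 the Pdgfb and Pdgfrb calls were lost (0.0805 and 0.0655), and without SCA1+Msc day 0 replicate 2 the Pdgfra and Pdgfrb calls (0.0538 and 0.0791). In co-culture, the Pdgfrb call was lost without either co-cultured library or without day 0 replicate 2 (0.0889 to 0.192), with quantile normalization (0.0877) and in a fit of only the 2 groups (0.0509). The Pdgfa call was lost without co-cultured replicate 1 (0.0523), and Pdgfd passed without day 0 replicate 1 (-0.68, 0.0444). The size of the Pdgfb difference varied with the day 0 library kept. The difference in co-culture was 0.233 without day 0 replicate 1 and 2.20 without day 0 replicate 2 (adjusted p = 0.403 and 9.4e-05, limma), and alone it was 0.61 and 2.58 (0.0381 and 4.0e-05). With a pseudocount of 0.1 neither receptor was called, alone (0.252 for Pdgfra and 0.0643 for Pdgfrb) or in co-culture (0.157 and 0.124).

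No member differed between SCA1+Msc co-cultured with DCs and SCA1+Msc grown alone. The count was 0 of 6 (limma; 0.127% of all genes), with 0 of 6 at an unadjusted p under 0.05. The differences ran from -0.45 ± 0.25 for Pdgfd (95% interval -1.005 to 0.104) to 0.42 ± 0.26 for Pdgfc (-0.155 to 1.001). For Pdgfra the difference was 0.32 ± 0.29 (-0.35 to 0.98) and for Pdgfrb -0.19 ± 0.27 (-0.80 to 0.42), intervals that leave room for a change of either sign. The ratio of Pdgfrb to Pdgfra was 2.21 ± 0.08 (SD, n = 2) at day 0, 1.98 ± 0.55 alone and 1.36 ± 0.01 in co-culture. In reads, which are not divided by length, co-cultured SCA1+Msc held more Pdgfra (17415 and 21815) than Pdgfrb (13006 and 16204).

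**Figure D5:**
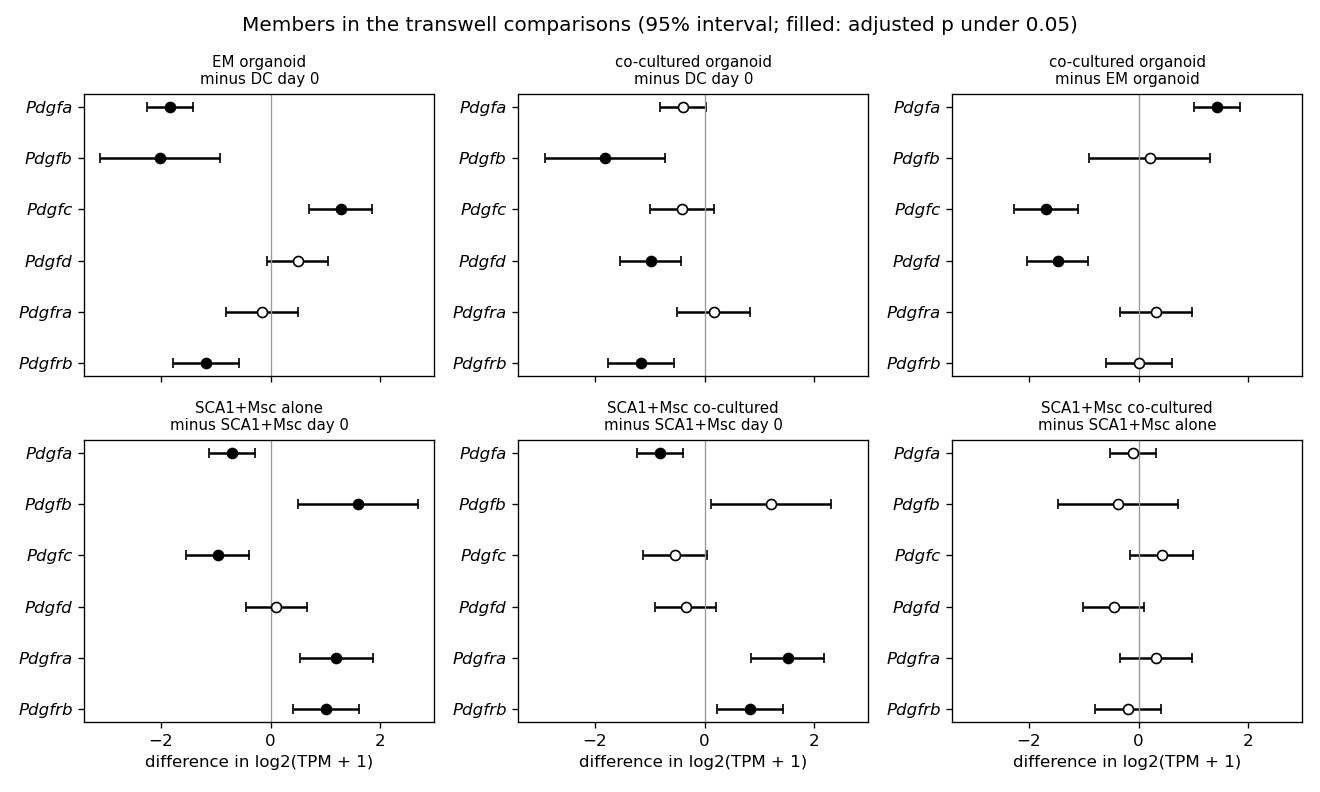
Points are the differences in log2(TPM + 1) of each member with 95% intervals from limma, for ductal cells (top) and SCA1+Msc (bottom), and filled points have an adjusted p under 0.05. Pdgfa, Pdgfc and Pdgfd are filled between co-cultured and EM organoids, and no point is filled between co-cultured SCA1+Msc and SCA1+Msc alone.

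Within the co-culture the receptors were almost all on the mesenchymal side, whereas ligand transcripts were on both sides of the membrane. The ligands summed to 84.6 ± 0.51 TPM (SD, n = 2) in SCA1+Msc, against 137 ± 9.43 in the organoids. Between co-cultured SCA1+Msc and co-cultured organoids 4 of 6 members differed (36.7% of all genes), 2 higher and 2 lower. Pdgfra and Pdgfrb were higher in SCA1+Msc by 7.85 ± 0.29 and 8.60 ± 0.27 (adjusted p = 5.1e-08 and 1.8e-08, limma). Pdgfc was 8.91-fold lower in SCA1+Msc (-2.78 ± 0.26, adjusted p = 1.9e-05) and Pdgfb 2.80-fold lower (-1.42 ± 0.49, adjusted p = 0.0459). The Pdgfb call was lost when any 1 of the 4 libraries was left out (adjusted p = 0.131 to 0.147), with the replicate number as a block (0.0520), and with quantile normalization, with no low-value filter or with 0.1 as pseudocount (0.0860 to 0.0906). Pdgfa, at 37.2 and 47.8 TPM in SCA1+Msc and 35.5 and 31.3 in organoids (0.33 ± 0.19, limma adjusted p = 0.214), and Pdgfd (-0.63 ± 0.25, adjusted p = 0.0750) did not pass. Pdgfd passed without co-cultured SCA1+Msc replicate 1 (adjusted p = 0.0432) and on RPKM as deposited (0.0286).

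The change from day 0 to co-culture itself differed between the cell types for 3 members (28.3% of all genes; an interaction term added after the data were seen). It was -1.81 in ductal and 1.22 in mesenchymal cells for Pdgfb, a difference of -3.03 ± 0.69 (adjusted p = 0.0103, limma), -1.16 and 0.83 for Pdgfrb (-1.99 ± 0.38, adjusted p = 0.00435), and 0.17 and 1.52 for Pdgfra (-1.35 ± 0.42, adjusted p = 0.0375). The Pdgfra difference follows from the pseudocount of 1, since ductal cells held 42 reads or fewer per library. As a ratio of means Pdgfra was 2.43-fold higher in co-culture than at day 0 in ductal cells, whose samples overlapped, and 2.82-fold higher in SCA1+Msc. The ductal ratio rests on the 42 reads of co-cultured organoid replicate 2, as replicate 1 held 0. Ductal Pdgfrb went from 88 and 27 reads to 1 and 0, so the size of its difference also depends on the pseudocount. For Pdgfa, Pdgfc and Pdgfd the difference was 0.42 ± 0.26, 0.13 ± 0.36 and -0.64 ± 0.35 (adjusted p = 0.281, 0.826 and 0.206).

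Genes that act around the ligands and receptors were followed as lists of 52 genes, of which 50 passed the low-value filter among homeostasis samples and 51 among transwell samples. Of 9 proteases and inhibitors that act on the ligands, 4 were higher and 1 lower in PDGFRα+SCA1+ cells than in DCs (23.8% of all genes called). The lower one was St14 (matriptase, which can process PDGF-D), at 0.0401 ± 0.0694 (SD, n = 3) in PDGFRα+SCA1+ cells against 185 ± 10.8 in DCs (-7.48 ± 0.63, adjusted p = 3.9e-06, limma). Pcsk6, a proprotein convertase, had the largest rise, at 47.7 ± 15.1 against 0.0194 ± 0.0336 (5.52 ± 0.47, adjusted p = 4.2e-06). Plat (tissue plasminogen activator, which cleaves the CUB domain from PDGF-C) fell in EM organoids from 349 ± 17.9 TPM (SD, n = 2) to 18.9 ± 0.53 (-4.13 ± 0.14, adjusted p = 1.5e-07) and was higher in co-cultured than in EM organoids, at 164 ± 34.7 (3.03 ± 0.14, adjusted p = 2.8e-06).

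Of the binders and co-receptors, 5 of 5 tested were higher in PDGFRα+SCA1+ cells and in PDGFRα+SCA1- cells than in DCs, with medians of 4.55 and 4.69 beside -0.28 and -0.47 over all genes (23.8% and 28.8% of all genes called). Pdgfrl, a receptor-like protein, was at 193 ± 26.9 in PDGFRα+SCA1+ cells and 0.233 ± 0.315 in DCs (7.32 ± 0.36, adjusted p = 5.1e-08, limma). Against PDGFRα+SCA1+ cells, PDGFRα-SCA1+ cells were lower in 4 of the 5 and higher in 1 (18.8% of all genes called), among the lower ones them Lrp1, a large endocytic receptor that associates with PDGFRβ (1.98 ± 0.978 against 255 ± 17.1; -6.47 ± 0.31, adjusted p = 1.5e-07). Nrp1, a co-receptor, was higher in PDGFRα-SCA1+ cells than in DCs, at 507 ± 162 against 4.75 ± 0.703 (6.42 ± 0.30, adjusted p = 7.0e-08). In culture, Sparc, a matrix protein that binds PDGF-B, rose in SCA1+Msc from 2180 ± 106 TPM to 7393 ± 176 alone (1.76 ± 0.16, adjusted p = 2.9e-05), while Thbs1, another matrix protein, fell from 1622 ± 94.9 to 139 ± 21.7 (-3.54 ± 0.16, adjusted p = 3.5e-07).

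Of 19 adaptors and effectors of the receptors, 2 were higher and 2 lower in PDGFRα+SCA1+ cells than in DCs (23.8% of all genes called), a share near that of all genes. In EM organoids 5 were higher and 7 lower than at day 0 (44.4% of all genes), and in SCA1+Msc alone 8 were higher and 3 lower than at day 0 (44.8%). Pik3r2, a regulatory subunit of PI3-kinase, rose in EM organoids from 11.6 ± 5.50 to 127 ± 10.6 TPM (3.42 ± 0.26, adjusted p = 7.0e-06, limma). Of 12 negative regulators, 7 were lower and 0 higher in EM organoids than in DCs at day 0 (limma; 44.4% of 18136 genes called, 3128 lower and 4917 higher), with a list median of -0.95 beside 0.12 over all genes. In co-cultured organoids 7 were lower and 0 higher (limma; 42.3% of all genes called, 3465 lower and 4210 higher), with a median of -1.20 beside 0. In SCA1+Msc alone 6 were lower and 0 higher than at day 0 (limma; 44.8% of all genes called, 3165 lower and 4962 higher), and Spry1, a feedback inhibitor of receptor tyrosine kinases, fell from 105 ± 26.7 to 6.09 ± 1.47 (-3.89 ± 0.36, adjusted p = 2.7e-05). Of the related class III receptors and their ligands, 3 of 5 tested were higher and 1 lower in PDGFRα-SCA1+ cells than in DCs (22.8% of all genes called). The receptor Kit was there, at 124 ± 36.1 against 0.782 ± 0.823 in DCs (6.19 ± 0.76, adjusted p = 7.6e-05).

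Over the 12 homeostasis samples, each member was set beside 10597 other genes by Pearson's r of log2(value + 1), as a description. These samples fall into 4 cell fractions, which alone give high r. Pdgfra was most like Osr2 (r = 0.999), Cilp (0.997) and Col6a5 (0.996), which stood at 0.982, 0.915 and 0.958 over the 12 transwell samples. Pdgfrb was most like Antxr1 (0.989), Srpx2 (0.987) and Smoc2 (0.987), with 0.991, 0.975 and 0.979 over the transwell samples. Pdgfb was most like Kcnq1, Tead4 and Nr5a2 (0.992, 0.991 and 0.991, with 0.653, 0.601 and 0.724 over the transwell samples), 3 genes that were high in DCs and present in PDGFRα-SCA1+ cells. Pdgfc was most like Klc3, Mapk13 and Lnx1 (0.977, 0.975 and 0.967, then 0.993, 0.764 and 0.590). Pdgfd was most like Hnf4a, Il1rn and Habp2 (0.965, 0.959 and 0.958, then 0.729, 0.655 and 0.672), whose means were highest in DCs, where hepatocyte genes were also present. Pdgfa had the weakest likeness, with Tmem263, Rplp1 and Pnp at 0.897, 0.893 and 0.882, of which Pnp alone stayed high over the transwell samples (0.888, against 0.0017 and -0.584).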

How the data were processed

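RNA was measured in 24 mouse liver samples by Smart-seq2 with single reads. Per the labels and the study's methods, the authors aligned reads to GRCm38/mm10 (STAR 2.5.0a) and counted exons of Ensembl genes with featureCounts (1.6.0 in the submitters' processing notes). The authors deposited RPKM for the transwell samples, which were scaled here to TPM per sample. The values deposited for the homeostasis samples are named TPM by the authors, but their columns do not share 1 total, as TPM columns do (the lowest sums to 847270). The totals divided by were not each sample's own and changed from gene to gene within a sample (factors of 0.722 to 1.39). The values were used as deposited, and restoring each sample's own total is an alternative. Columns of the authors' means were not used.

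Whole reads were recovered from steps between low values (92.9% and 93.1% of low values whole within 0.02 reads). For Pdgfb the 3 low values were not whole with the GENCODE M21 exon length (4161 bases). The smallest of them was taken as 1 read, which implies a length of 2919 bases, and this was used. The Pdgfb read counts, and the ratios to them, rest on that assumption. Intervals and floors (3 reads) cover counting error only. log2(value + 1) was fitted with limma 3.58.1 (R 4.3.3) over all groups of an experiment, without a replicate term, on genes with at least 1 unit in 3 homeostasis or 2 transwell samples (17028 and 18136 genes), and p-values were Benjamini-Hochberg adjusted over all of them. Fold changes on this scale understate the change of low genes. The fit was tested on simulated data. Mice pair the homeostasis fractions (same animal), although deviations of same-mouse samples correlated weakly (mean r 0.019 to 0.062).

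The 6 members, the pathway and marker lists were chosen with earlier results of these data known. Besides the members, the text names for each member the 3 genes most like it over the homeostasis samples (expressed genes at a mean of at least 10 in a fraction), and, per comparison, from the pathway lists, up to 2 genes with the largest rise and 2 with the largest fall. A gene that this rule would name is not reported here. Alternatives were another pseudocount (0.1), no filter, quantile normalization, the unscaled or restored values, fits of 2 groups, a replicate term, and each library left out.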

Additional observations from a re-analysis of the deposited data

Results flagged for a closer look

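Under the same contrast, day 0 to co-culture, 3 members passed an interaction term between ductal and mesenchymal cells on the log2(TPM + 1) scale, chosen after the data were seen. The ductal minus the mesenchymal change was -3.03 for Pdgfb (adjusted p = 0.0103, limma), -1.99 for Pdgfrb (0.00435) and -1.35 for Pdgfra (0.0375). For Pdgfb, 2 of 2 co-cultured organoid samples lay below both day 0 samples and 2 of 2 co-cultured SCA1+Msc samples above both. The day 0 SCA1+Msc libraries, at 2.06 and 10.98 TPM of Pdgfb, also held ductal marker sums of 1192 and 2539, and the part of these in the difference was not tested. The receptor values in ductal cells rest on 88 reads or fewer per library, so both receptor differences depend on the pseudocount of 1. For Pdgfra, the ratio of means was 2.43 in ductal and 2.82 in mesenchymal cells. The ductal ratio rests on a single library, since co-cultured organoids held 0 and 42 reads and DCs at day 0 held 17 and 2. Without co-cultured organoid replicate 2 the ductal difference was -0.15.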

How the results depend on the processing

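Over the alternatives, 139 of the recomputed counts of members stayed within 1.5 times the count reported and 13 did not. Of the single-gene differences 823 kept direction and side of the threshold, 51 lost a call and 11 gained one. Another 16 turned direction or went to 0, none of them a called difference. With a pseudocount of 0.1 the count for SCA1+Msc went from 5 to 3 alone and from 3 to 1 in co-culture against day 0, and a fit of only the 2 groups gave 3 alone. When each library was left out in turn, the count ran from 1 to 4 for PDGFRα-SCA1+ against DC, 0 to 1 between the PDGFRα+ fractions, 0 to 2 for co-cultured organoids against DC day 0, 0 to 5 for SCA1+Msc alone and 1 to 4 for co-cultured SCA1+Msc against day 0. Quantile normalization turned Pdgfra in PDGFRα-SCA1+ against DC to 0.32, Pdgfb, Pdgfc and Pdgfd between the PDGFRα+ fractions to -0.35, -0.36 and 0.14, and Pdgfd in SCA1+Msc alone against day 0 to -0.091. Leaving out libraries gave ranges that reach or cross 0 for Pdgfa in PDGFRα-SCA1+ against DC (-0.057 to 0.57), Pdgfd (-0.28 to 0.23) and Pdgfra (-0.053 to 0.41) between the PDGFRα+ fractions, Pdgfra in co-cultured organoids against DC day 0 (-0.15 to 0.49), Pdgfb (-0.023 to 0.43), Pdgfra (0 to 0.64) and Pdgfrb (0 to 0.029) between co-cultured and EM organoids, Pdgfd in SCA1+Msc alone against day 0 (-0.23 to 0.45) and Pdgfa between co-cultured SCA1+Msc and SCA1+Msc alone (-0.28 to 0.068). The cause was not tested.

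Transwell replicates share only a number (mean r of deviations -0.019 to 0.030). With the replicate number as a block, co-cultured SCA1+Msc against co-cultured organoids had 3 members instead of 4, Pdgfb reaching -1.42 with adjusted p = 0.0520 (limma), and no other count of members changed in either experiment. With 2 libraries a group in the transwell experiment, a lone library left in a group is assumed to vary like the others. Levels at or under 3 reads, such as Pdgfb in PDGFRα+ cells and both receptors in EM organoids, were not told apart from absence.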

Other observations

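Co-cultured organoids, the group with the lower Pdgfc and Pdgfd, also carried mesothelial list genes, with a summed level of 3879 and 4502 TPM for 4 genes (2 of them, Wt1 and Lrrn4, at 0 in both libraries), against 297 and 326 in EM organoids and 87.7 and 109 in DCs at day 0. Leukocyte and macrophage list genes summed to 376 and 605 in SCA1+Msc alone and to 258 and 285 in co-cultured SCA1+Msc, with Ptprc and Clec4f at 0 in both groups. Freshly sorted cells of both types carried erythroid genes (3890 and 3961 in DCs, 6388 and 8038 in SCA1+Msc), which were at 1.81 or less in every culture.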
